A study of Mus musculus with 16 samples.

Results

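The genes that make, sense, remove and export sphingosine-1-phosphate (S1P) were followed in differentiating neural stem cells (NSC) in which the long noncoding RNA RUS was targeted by RNA interference. The 9 genes were found by symbol among 55468 named lines of the day 5 table and 55471 of the day 7 table. They are the kinases Sphk1 and Sphk2, the receptors S1pr1, S1pr2, S1pr3 and S1pr5, the lyase Sgpl1, the phosphatase Sgpp1 and the exporter Spns2. The set was chosen on measured values, since Sphk1 had one of the top rises in the knockdown on day 5, so the day 5 difference is given for all 9 genes as a description with no test. The NSC came from cortices of C57BL/6 mouse embryos at E15-16, pooled from embryos of both sexes, and were kept with FGF2 until its withdrawal started differentiation 5 d after seeding. Every culture carried a lentivirus that expresses an shRNA. The control cultures (shRNA CON) received a scrambled sequence and the knockdown cultures (shRNA RUS) a single shRNA sequence against RUS, and neither group was left untransduced. PolyA RNA was sequenced on day 5 and day 7, in groups of 4 libraries (16 libraries altogether), and nothing in the labels says whether the 4 came from separate preparations, so p-values measure the spread between these libraries only.

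S1P is a lipid messenger made when a sphingosine kinase phosphorylates sphingosine, the backbone released from ceramide. It leaves the cell through a transporter such as Spns2 and binds receptors of the G protein-coupled class on the same or neighbouring cells. Inside the cell it is either turned back into sphingosine by a phosphatase or cleaved for good by the lyase Sgpl1. In the brain, S1P receptors are known from astrocytes, oligodendrocytes, vessels and migrating neural precursors, and drugs against them are used in multiple sclerosis.

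In short, on day 7 both kinases and the receptors S1pr1 and S1pr3 were higher under shRNA RUS than under shRNA CON, Sgpp1 was lower, and S1pr2, Sgpl1 and Spns2 did not pass the test. Sphk1 had the widest difference, 8.2-fold on the scale of the fit, and the other called members lay between 0.702-fold and 1.67-fold. From day 5 to day 7, S1pr3 fell and Spns2 rose under both shRNAs, the rise of Spns2 under shRNA CON not under every scaling.

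The promoter windows of the genes that were higher on both days are shown first, as reference for where these genes start. RefSeq windows (GRCm38.p6, from 250 bases before to 50 bases after an annotated start) were found for 8 of the 9 symbols, and S1pr1 had none. Sphk1, on chromosome 11, has 5 such windows, of which the first and a later one are printed. Sphk2 has 2, of which the one at the outer start is printed. Capitals mark matches, on either strand, to 1 of 3 words that were picked after the values were known. The GC box was searched as GGGCGG. The binding word of the AP-1 factors was searched as TGANTCA. The TATA box was searched as TATAAA.
Sphk1, chr11:116530850-116531149, plus strand: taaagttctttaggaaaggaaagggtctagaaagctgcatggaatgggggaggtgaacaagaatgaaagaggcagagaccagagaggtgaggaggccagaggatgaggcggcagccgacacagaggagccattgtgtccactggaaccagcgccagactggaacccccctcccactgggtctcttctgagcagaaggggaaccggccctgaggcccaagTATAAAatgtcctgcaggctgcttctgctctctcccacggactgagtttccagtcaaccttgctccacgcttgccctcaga
Sphk1, chr11:116531587-116531886, plus strand: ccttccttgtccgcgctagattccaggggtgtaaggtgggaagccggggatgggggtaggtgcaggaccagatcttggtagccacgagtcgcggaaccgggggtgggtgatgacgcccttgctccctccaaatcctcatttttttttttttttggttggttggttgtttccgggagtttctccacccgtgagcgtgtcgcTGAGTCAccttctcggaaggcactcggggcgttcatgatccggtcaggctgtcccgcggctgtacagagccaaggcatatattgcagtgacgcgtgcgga
Sphk2, chr7:45717953-45718252, minus strand: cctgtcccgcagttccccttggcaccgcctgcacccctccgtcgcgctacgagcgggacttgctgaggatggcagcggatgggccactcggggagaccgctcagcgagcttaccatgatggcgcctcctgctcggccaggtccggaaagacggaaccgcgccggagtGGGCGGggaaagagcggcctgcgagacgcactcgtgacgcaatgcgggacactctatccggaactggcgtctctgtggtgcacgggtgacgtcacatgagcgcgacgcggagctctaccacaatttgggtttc
S1pr3, chr13:51408368-51408667, plus strand: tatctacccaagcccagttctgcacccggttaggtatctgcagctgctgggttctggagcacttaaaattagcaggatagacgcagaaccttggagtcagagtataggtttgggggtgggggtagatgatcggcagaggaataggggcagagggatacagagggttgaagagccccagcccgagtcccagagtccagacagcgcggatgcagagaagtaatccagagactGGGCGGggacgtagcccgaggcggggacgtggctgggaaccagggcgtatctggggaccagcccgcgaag
The first Sphk1 window holds 1 TATA box and the later one 1 AP-1 word, and neither holds a GC box. Of the Sphk1 windows not printed, chr11:116531661-116531960 holds the same AP-1 word again. The others, chr11:116532194-116532493 and chr11:116532201-116532500, hold none of the words. The printed Sphk2 window and the S1pr3 window hold 1 GC box each, and the other Sphk2 window (chr7:45715158-45715457) holds 3. Over 32851 mouse windows of this length, the GC box was present in 35.7%, the TATA box in 13.6% and the AP-1 word in 7.81%, and the matches are given as a description only. In the printed Sphk2 window there were 33 CpG, more than in 91.4% of all windows, in the other 27, more than in 84.5%, and the 5 Sphk1 windows held 6 to 21, the first of them 6, more than in 43.6%, and the second printed one 21, more than in 75.2%.

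Some of the genes share exonic bases with a gene on the other strand in the GENCODE vM21 annotation, and whether reads were assigned by strand is not given in the sources used here. Sphk2 (chr7:45709467-45718002, minus strand) overlaps Dbp over 539 exonic bases and Rpl18, which encodes a ribosomal protein, over 373. On day 7 the median of Rpl18 was 631 scaled TPM under shRNA CON and 340 under shRNA RUS, a fall (log2 fold change -0.94, SE 0.0534, limma adjusted p = 9.82e-07), while Sphk2 rose. Dbp, a clock-controlled transcription factor, moved the same way as Sphk2 on day 7 (0.21, SE 0.0733, limma adjusted p = 0.0376) but had a log2 fold change of 0.01 (SE 0.0937) on day 5. Sphk1 (chr11:116530925-116536674, plus strand) overlaps the antisense gene Gm29292 over 192 bases, and Gm29292 was at or below 0.141 scaled TPM in every library. S1pr3 (chr13:51408639-51422797, plus strand) shares 45 bases with Gm32834, which was higher under shRNA RUS on day 5 and lower on day 7, and Spns2 (chr11:72451638-72489904, minus strand) shares 131 bases with Mybbp1a. S1pr1 (chr3:115710433-115715072), S1pr2 (chr9:20962361-20976781), Sgpl1 (chr10:61098642-61147703) and Sgpp1 (chr12:75714249-75735729), all on the minus strand, overlap no other exon, and S1pr5 (chr9:21242912-21248443, minus strand) only Gm48303, which is listed at 0 throughout.

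Values are TPM (transcript abundances adjusted for gene length and scaled to a fixed sum per library), divided by a factor for each library that brings the typical gene to the same level across the libraries compared, and called scaled TPM here. Levels on this scale can be set side by side between genes. Differences are log2 fold changes of scaled TPM + 0.1 from limma, each with its standard error (SE), and a gene was called when its p, adjusted over all genes of the fit, was below 0.05. The day 5 libraries needed factors from 0.92 to 1.11 and those of day 7 from 0.991 to 1.01. The number of reads is unknown, since only TPM were given. The targeted transcript Gm20754 (RUS) was low, with scaled TPM of 0.216, 0.107, 0.171 and 0.154 under shRNA CON and 0.0543, 0, 0.128 and 0.317 under shRNA RUS on day 5. On day 7 it had 0.706, 0.715, 0.258 and 0.543 under shRNA CON and 0.542, 0.380, 0 and 0.0396 under shRNA RUS. The groups overlapped on both days, and the difference did not pass the test on day 5 (log2 fold change -0.40, SE 0.439, limma adjusted p = 0.519) or day 7 (-1.28, SE 0.609, limma adjusted p = 0.114). By RT-qPCR, a separate measure, the paper reported reduced RUS levels in the knockdown of its transcriptome experiment. Replicate 4 of shRNA RUS on day 5 had the highest value of its group, 0.317, above every shRNA CON library of that day. Without this library the day 5 fit called 3929 genes higher and 4593 lower in place of 3349 and 4034. A link of these counts to its RUS value was not tested.

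Sphk1, the kinase that is induced by growth factors and acts at the plasma membrane, was low in the control cultures. In shRNA CON its scaled TPM were 0.773, 0.801, 1.07 and 0.893 on day 5 and 0.272, 0.348, 0.367 and 0.261 on day 7. In shRNA RUS they were 3.85, 5.11, 5.00 and 3.65 on day 5 and 2.90, 3.43, 3.06 and 3.69 on day 7. Every knockdown library lay above every control library of its day, and the lowest knockdown value on day 7 was above the highest control value on either day. The log2 fold change was 2.19 (SE 0.156) on day 5, where the gene was chosen, and 3.04 on day 7 (SE 0.152, limma adjusted p = 4.83e-07), with 4 libraries per group. Since the control level on day 7 was near the added 0.1, the day 7 value was 1.70 when 1 was added in place of 0.1, with the call kept.

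Sphk2, the kinase found in the nucleus, the endoplasmic reticulum and mitochondria, was the more abundant of the pair. On day 5 its scaled TPM were 15.9, 14.96, 15.5 and 16.4 under shRNA CON and 25.2, 29.0, 30.9 and 23.4 under shRNA RUS. On day 7 they were 14.1, 14.1, 15.3 and 12.6 under shRNA CON and 22.3, 22.9, 23.9 and 24.8 under shRNA RUS. The groups were separate on both days, by a log2 fold change of 0.78 (SE 0.0897) on day 5 and of 0.74 on day 7 (SE 0.0653, limma adjusted p = 1.34e-05), which is 1.67-fold.

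**Figure D1:**
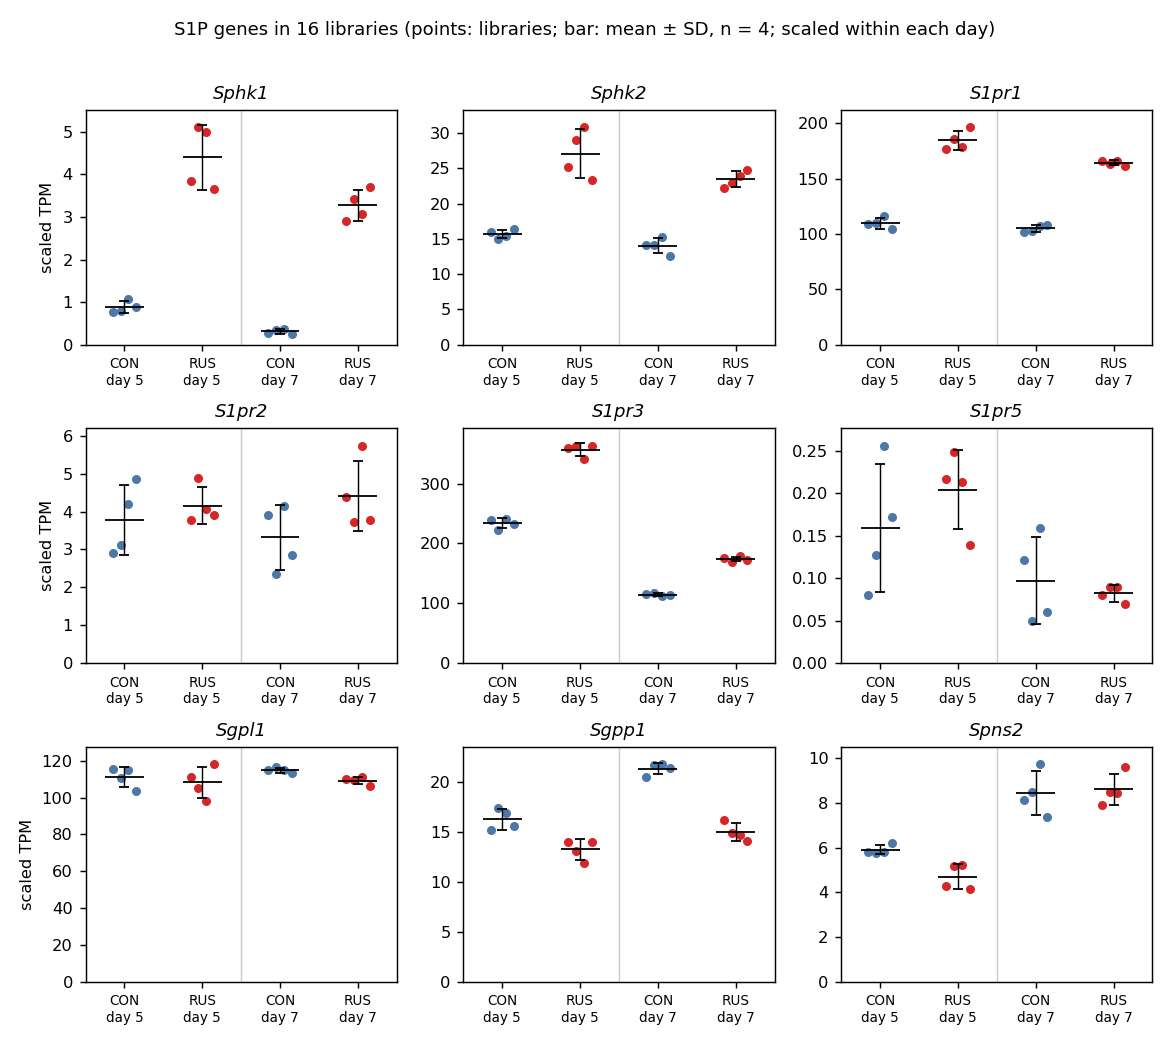
Scaled TPM (vertical axes, from 0) of the 9 S1P genes under shRNA CON (blue) and shRNA RUS (red) libraries on day 5 and day 7; each point is 1 library, the wide bar the mean and the error bar the SD of 4, with factors computed within each day. Sphk1, Sphk2, S1pr1 and S1pr3 separate the 2 shRNAs on both days, from 0.312 against 3.27 for Sphk1 to 115 against 174 for S1pr3 on day 7, and Sgpp1 separates them in the other direction.

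The make-up of the kinase transcripts differed too. Sphk1 gave 5.34% ± 0.799 (SD, n = 4) of the summed kinase TPM under shRNA CON and 13.9% ± 0.768 under shRNA RUS on day 5. On day 7 the shares were 2.17% ± 0.244 and 12.2% ± 0.904, and the highest control library had 2.40% against 11.4% in the lowest knockdown library. Sphk2 thus remained the main kinase transcript in every library. These shares do not depend on the library factors and are given as a description, looked at after the single values.

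**Figure D2:**
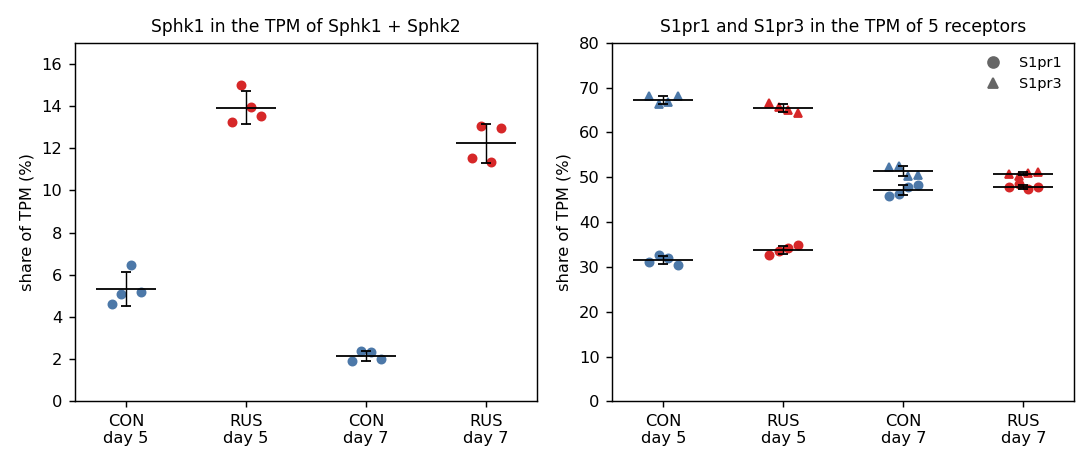
Share of summed TPM (per cent, vertical axes) taken by Sphk1 among the 2 kinases (left) and by S1pr1 (circles) and S1pr3 (triangles) among the 5 S1P receptors (right), in the 4 groups; points are libraries, bars the mean and SD of 4. The Sphk1 share is higher under shRNA RUS on both days, 2.17% against 12.2% on day 7, and S1pr3 gives a smaller receptor share on day 7 than on day 5 under either shRNA.

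S1pr3, a receptor that couples to several G protein families, had the highest level of the receptors in every library. Its scaled TPM on day 5 were 239, 223, 241 and 233 under shRNA CON and 359, 363, 341 and 363 under shRNA RUS. On day 7 they were 116, 117, 113 and 113 under shRNA CON and 176, 169.6, 178 and 173 under shRNA RUS. The groups were separate on both days and the libraries within a group close together. The log2 fold change was 0.61 (SE 0.0475) on day 5 and 0.60 on day 7 (SE 0.0294, limma adjusted p = 4.4e-07), 1.52-fold.

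S1pr1, the receptor that couples to Gi and is best known for lymphocyte egress and vessel integrity, had scaled TPM of 109, 109, 116 and 104 under shRNA CON and 177, 185, 179 and 196 under shRNA RUS on day 5. On day 7 the values were 102, 103, 107 and 109 under shRNA CON and 166, 163, 166 and 161 under shRNA RUS. All knockdown libraries lay above all control libraries of the same day. The log2 fold change was 0.75 (SE 0.0537) on day 5 and 0.64 on day 7 (SE 0.0322, limma adjusted p = 4.87e-07), 1.56-fold.

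S1pr2, a receptor that couples to several G proteins, was lower by more than an order of magnitude and more variable. On day 7 its scaled TPM were 3.92, 2.36, 4.16 and 2.84 under shRNA CON and 4.38, 3.73, 5.74 and 3.78 under shRNA RUS, and the groups overlapped. The log2 fold change was 0.16 (SE 0.169) on day 5 and 0.41 on day 7 (SE 0.201, limma adjusted p = 0.122), with a 95% confidence interval from -0.04 to 0.87 on day 7.

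S1pr5, the receptor of mature oligodendrocytes and natural killer cells, was near the bottom of the scale. It ranged from 0.0809 to 0.256 scaled TPM under shRNA CON and from 0.139 to 0.249 under shRNA RUS on day 5, with a log2 fold change of 0.26 (SE 0.292). On day 7 it lay between 0.0497 and 0.159 in all 8 libraries and its mean missed the minimum of 0.1 TPM, so it was not tested. S1pr4, the receptor of blood cells, is no member and reached at most 0.0992 scaled TPM.

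The make-up of the receptor transcripts was given by S1pr3 and S1pr1. S1pr3 gave 67.3% ± 0.888 (SD, n = 4) of the receptor TPM under shRNA CON and 65.4% ± 0.906 under shRNA RUS on day 5, and 51.4% ± 1.21 and 50.8% ± 0.311 on day 7. S1pr1 gave 31.6% ± 0.966 and 33.8% ± 0.926 on day 5, and 47.1% ± 1.13 and 47.9% ± 0.445 on day 7. On day 7 the ranges of the 2 shRNAs overlapped for both shares. On day 5 those of S1pr1 did not, at 30.5% to 32.6% and 32.7% to 34.9%. The shares are descriptions with no test.

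Sgpl1, the lyase that ends S1P signalling by cleaving the molecule, was close to S1pr3 in level under shRNA CON on day 7 and below S1pr1 and S1pr3 under shRNA RUS on both days. On day 7 its scaled TPM were 115, 117, 115 and 113 under shRNA CON and 110.2, 109, 111 and 106 under shRNA RUS. The groups did not overlap, but the difference missed the threshold (percent change -4.96, log2 fold change -0.07, SE 0.0286, limma adjusted p = 0.0598), and it was called with quantile normalization (adjusted p = 0.0134) and with scaling to the 75th percentile (adjusted p = 0.0367). On day 5 the values ran from 104 to 115 under shRNA CON and from 98.1 to 118 under shRNA RUS, with a log2 fold change of -0.04 (SE 0.0668).

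Sgpp1, the phosphatase of the endoplasmic reticulum that turns S1P back into sphingosine, was the called member with lower values in the knockdown. On day 5 its scaled TPM were 15.1, 17.4, 16.9 and 15.6 under shRNA CON and 14.0, 13.1, 11.8 and 14.0 under shRNA RUS. On day 7 they were 20.5, 21.7, 21.8 and 21.3 under shRNA CON and 16.2, 14.9, 14.7 and 14.1 under shRNA RUS. Each knockdown library was below each control library of its day, by a log2 fold change of -0.30 (SE 0.0772) on day 5 and -0.51 on day 7 (SE 0.0526, limma adjusted p = 3.57e-05), a percent change of -29.8 on day 7. Sgpp2, the second phosphatase gene and no member, reached at most 0.129 scaled TPM.

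Spns2, the exporter that releases S1P from endothelial and other cells, gave no common direction. On day 5 its scaled TPM were 5.81, 5.77, 5.79 and 6.19 under shRNA CON and 4.26, 5.16, 5.20 and 4.15 under shRNA RUS, which did not overlap (log2 fold change -0.33, SE 0.0967). On day 7 they were 8.13, 8.48, 9.73 and 7.36 under shRNA CON and 7.91, 8.47, 8.45 and 9.59 under shRNA RUS, and the groups overlapped over most of their range. The day 7 difference was 0.03 (SE 0.0945, limma adjusted p = 0.804), with a 95% confidence interval from -0.18 to 0.25.

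**Figure D3:**
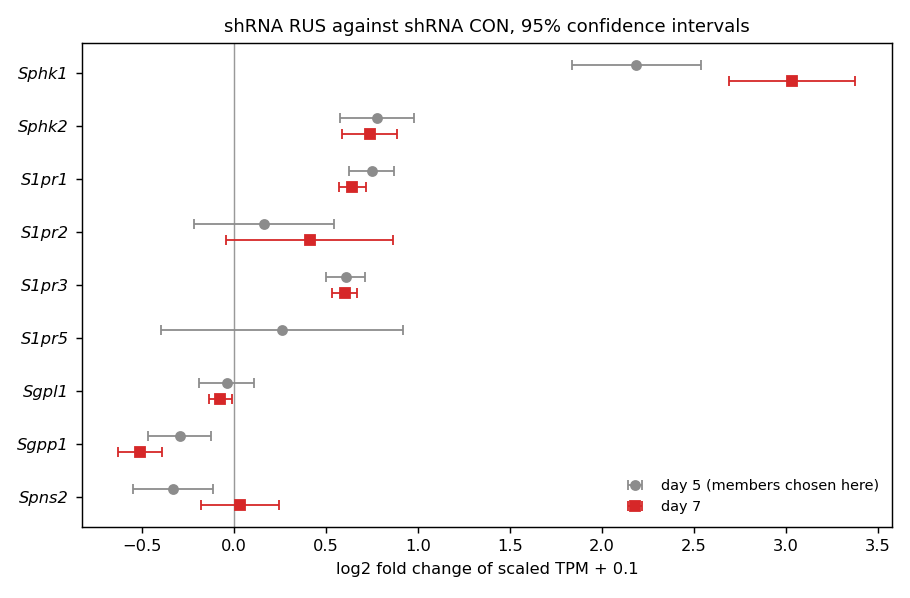
Log2 fold change of scaled TPM + 0.1 under shRNA RUS against shRNA CON (horizontal axis) for each S1P gene on day 5 (grey circles, the contrast on which the set was chosen) and day 7 (red squares), with 95% confidence intervals from limma, 4 libraries per group. On day 7, Sphk1 stands at 3.04, Sphk2, S1pr1 and S1pr3 between 0.60 and 0.74, and Sgpp1 at -0.51.

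Of the 8 members that passed the filter on day 7, 4 were called higher and 1 lower, where 23.4% of 24606 genes were called higher and 25.8% lower. Those 8 had a median of 0.51 on the log2 scale, and all genes one of -0.03. On day 5 all 9 passed the filter, 4 of them past the threshold upward and 2 downward, against 14.8% and 17.9% of 22581 genes. Nothing is read from the day 5 count, since the set was chosen there. The downward count of day 5 was 0 without replicate 2 or 3 of shRNA CON, and 1 without replicate 1 or 4 of shRNA CON or replicate 1 of shRNA RUS. The day 5 calls over all genes, 3349 upward and 4034 downward, became 1768 and 6037 when TPM were left unscaled and 2418 and 4859 when scaled to the 75th percentile.

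Whether the effect of the knockdown changed from day 5 to day 7 was tested for the 8 genes other than Sphk1 in the fit over all 16 libraries. None of the 8 was called, where 15.2% of 23789 genes had a more positive effect on day 7 and 14.6% a more negative one by limma at an adjusted p below 0.05. At an unadjusted p below 0.05 there were 2, Spns2 and Sgpp1. For S1pr3 the effects of the days differed by -0.02 on the log2 scale (SE 0.0489, 95% confidence interval from -0.12 to 0.09, limma adjusted p = 0.815), and quantile normalization turned this to 0.25 (adjusted p = 0.0221). For S1pr1 the difference was -0.12 (interval from -0.24 to 0.01) and for Sphk2 -0.05 (interval from -0.29 to 0.19), neither called in any alternative, and with TPM as deposited they turned to 0.06 and 0.12. Spns2 came nearest to the threshold with 0.35 (SE 0.133, limma adjusted p = 0.0586), and was called in the fits without replicate 2 or replicate 3 of shRNA RUS on day 5 (0.39 and 0.40) or without replicate 3 of shRNA CON on day 7 (0.42), and in those with a filter at 1 TPM, TPM as deposited or the 75th percentile. Sgpp1 followed with -0.23 (SE 0.092, limma adjusted p = 0.0777), and was called without replicate 3 of shRNA RUS on day 5 (-0.28) or replicate 1 of shRNA RUS on day 7 (-0.27), and with quantile normalization (-0.29). For Sphk1 the difference was 0.80 (SE 0.207) as a description, and 0.08 when 1 was added in place of 0.1.

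The culture time was compared within each shRNA, with library factors over all 16 libraries. By the paper's methods, a medium with serum was replaced by neurobasal medium to start differentiation, so culture time and medium cannot be told apart. S1pr3 fell from 254 ± 8.84 scaled TPM (SD, n = 4) on day 5 to 106 ± 1.51 on day 7 under shRNA CON, and from 387 ± 11.3 to 159.7 ± 3.45 under shRNA RUS. On the log2 scale these were changes of -1.26 (SE 0.0346, limma adjusted p = 5.8e-13) and -1.28 (SE 0.0346, limma adjusted p = 3.32e-13), with the call kept in every alternative run and the knockdown value at -0.83 with quantile normalization. S1pr1 went from 119 ± 5.02 to 97.3 ± 3.41 under shRNA CON (-0.29, limma adjusted p = 2.82e-05) and from 200.2 ± 9.64 to 150.6 ± 2.08 under shRNA RUS (-0.41, limma adjusted p = 4.29e-07), and the call under shRNA RUS was lost with TPM as deposited (-0.09) and with quantile normalization (-0.06). In shRNA CON the S1pr1 value was -0.14 with TPM as deposited and -0.16 with quantile normalization.

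Sphk2 was lower on day 7 by a log2 fold change of -0.39 under shRNA CON (limma adjusted p = 0.000665) and of -0.44 under shRNA RUS (limma adjusted p = 0.000146). With TPM as deposited these became -0.24 and -0.12, and the second was no longer called. Sgpl1 was lower by a log2 fold change of -0.18 under shRNA CON (limma adjusted p = 0.00811), not called under any of the other 3 scalings, and of -0.23 under shRNA RUS (limma adjusted p = 0.00112), which turned to 0.10 with TPM as deposited and to 0.01 with quantile normalization and was no longer called with the 75th percentile (-0.12). S1pr5 had day 7 means of 0.0975 TPM under shRNA CON and 0.0825 under shRNA RUS, below the minimum of 0.1. It passed the filter of this fit through its day 5 values, so its fall with time is a description and no test. It was past the threshold under shRNA RUS only (-0.86, SE 0.262), with -0.51 under shRNA CON, which passed at -0.87 with quantile normalization. The difference of that change between the shRNAs was not called (-0.35, limma adjusted p = 0.515). Under shRNA RUS and shRNA CON these S1pr5 changes were -0.18 and -0.10 when 1 was added in place of 0.1, and -1.42 and -0.89 when 0.01 was added, with no call altered.

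Spns2 was the member called higher on day 7. It went from 6.41 ± 0.215 to 7.80 ± 0.893 scaled TPM under shRNA CON (0.27, SE 0.094, limma adjusted p = 0.0245) and from 5.09 ± 0.598 to 7.89 ± 0.645 under shRNA RUS (0.62, SE 0.094, limma adjusted p = 2.77e-05). The control call was lost with quantile normalization (0.15) and in each of the fits without replicate 2 or 3 of shRNA CON on day 5 or day 7 (0.20 to 0.27), and the value under shRNA RUS was 0.94 with TPM as deposited. Sgpp1 had 0.16 under shRNA CON (limma adjusted p = 0.0524, called without replicate 2 of shRNA CON, 3 or 4 of shRNA RUS on day 5 or 1 of shRNA RUS on day 7, at 0.16 to 0.19, and at 0.31 with TPM as deposited) and -0.07 under shRNA RUS (limma adjusted p = 0.409), the latter called at 0.26 with TPM as deposited and at -0.19 with quantile normalization. S1pr2 was called under neither shRNA (-0.41, limma adjusted p = 0.0992, and -0.17, limma adjusted p = 0.475), although the control value was called without replicate 1 of day 5 or 3 of day 7 (both -0.52) or with quantile normalization (-0.59) and the knockdown value turned to 0.15 with TPM as deposited. Sphk1, as a description, went from 0.962 ± 0.145 to 0.289 ± 0.0483 scaled TPM under shRNA CON and had a log2 fold change of -0.64 (SE 0.147) from 4.78 ± 0.813 scaled TPM on day 5 under shRNA RUS, which was -0.33 with TPM as deposited and -0.88 with quantile normalization.

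**Figure D4:**
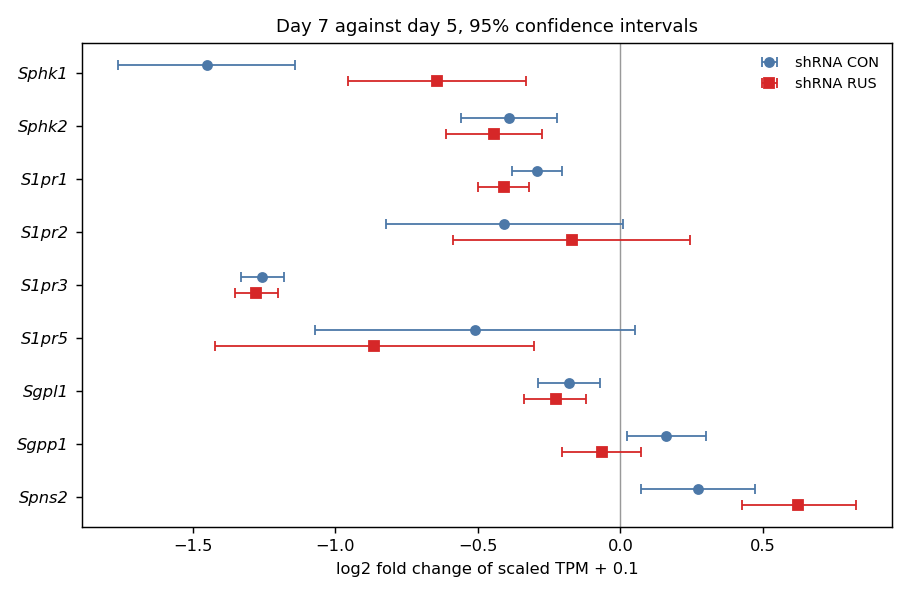
Log2 fold change of scaled TPM + 0.1 on day 7 against day 5 (horizontal axis) for each S1P gene under shRNA CON (blue circles) and shRNA RUS (red squares), with 95% confidence intervals from limma, 4 libraries per group. S1pr3 lies at -1.26 and -1.28, Spns2 at 0.27 and 0.62, and the Sphk1 and S1pr5 values are descriptions.

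Over the 8 genes other than Sphk1, 1 was called higher and 4 lower with time under shRNA CON, where 26.9% and 21.6% of all genes were called. In shRNA RUS 1 was called higher and 5 lower, where 35% and 25.8% of all genes were. The 5 include S1pr5, which passed the filter through its day 5 values and whose fall is a description. With TPM as deposited, all-gene calls moved from 6394 higher and 5133 lower to 8573 and 3434 under shRNA CON, from 8317 and 6135 to 11801 and 3545 under shRNA RUS, and for the difference between the days from 3626 and 3464 to 5700 and 2053. The median of all genes was then 0.21 under shRNA CON and 0.42 under shRNA RUS, in place of 0.07 and 0.13.

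The order of the levels also differed between the shRNAs. In shRNA CON on day 7 the order by mean scaled TPM was Sgpl1 (115 ± 1.39), S1pr3 (115 ± 1.79), S1pr1 (105 ± 3.36), Sgpp1 (21.3 ± 0.583), Sphk2 (14.1 ± 1.11), Spns2 (8.43 ± 0.990), S1pr2 (3.32 ± 0.856), Sphk1 (0.312 ± 0.0530) and S1pr5 (0.0974 ± 0.0516), as SD with n = 4. The libraries of the first pair overlapped, and those of every other pair of neighbours did not. In shRNA RUS the receptors came first, with S1pr3 at 174 ± 3.83 and S1pr1 at 164 ± 2.27, followed by Sgpl1 at 109 ± 2.11, Sphk2 at 23.5 ± 1.11 and Sgpp1 at 14.96 ± 0.891. Sphk2 and Sgpp1 thus changed places, and Sphk1 (3.27 ± 0.358) came close to S1pr2 (4.41 ± 0.935), whose lowest library had 3.73 against 3.69 in the highest of Sphk1.

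The rest of the sphingolipid pathway was counted from lists written with earlier results of these data known, so the counts are descriptions beside the shares of all genes given above. Among genes for de novo ceramide synthesis, 16 of 17 were tested on day 7, with 6 higher and 5 lower around a median of -0.05 on the log2 scale. Sptssa, a small subunit of serine palmitoyltransferase, went from 98.1 ± 1.36 to 48.4 ± 2.82 scaled TPM (-1.02, limma adjusted p = 2.41e-07). Ormdl1 and Ormdl3, which restrain that enzyme, were higher (0.67, limma adjusted p = 3.47e-05, and 0.59, limma adjusted p = 6.45e-07). These genes had called differences in the same direction on day 5. Ormdl2, of the same family, was lower on day 7 (-0.22, limma adjusted p = 0.00198) and higher on day 5 (0.38, limma adjusted p = 0.00235).

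Of 12 tested genes for ceramide and sphingomyelin breakdown, 5 were higher and 3 lower on day 7. Asah1, the acid ceramidase that frees sphingosine in lysosomes, went from 88.9 ± 9.53 to 197.7 ± 14.1 scaled TPM (1.16, limma adjusted p = 2.5e-06) on day 7 and had 0.62 on day 5 (limma adjusted p = 0.000503). Asah2, the neutral ceramidase, was lower (-0.77, limma adjusted p = 0.000689), as was Galc, which removes galactose from galactosylceramide (-0.86, limma adjusted p = 1.97e-06). The substrate-releasing enzymes did not share a direction.

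Of 14 genes for complex sphingolipids, 3 were higher and 4 lower on day 7. Gal3st1, the sulfatide synthase, had -2.04 (limma adjusted p = 8e-05), Ugt8a, the galactosylceramide synthase, -1.17 (limma adjusted p = 0.0136), and St8sia1, the GD3 synthase, -0.89 (limma adjusted p = 0.000474). On day 5, 0 of the 14 were called higher and 6 lower, among them Ugt8a (-0.97, limma adjusted p = 0.00661) and St8sia1 (-1.11, limma adjusted p = 0.0018). Gal3st1 had -0.53 on that day and was not called (limma adjusted p = 0.066).

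Among the other S1P genes, 8 of 10 were tested on day 7, with 3 higher and 3 lower. Plpp3, a cell-surface phosphatase of S1P and lysophosphatidic acid, had 295 ± 10.5 scaled TPM under shRNA CON and 490.1 ± 22.3 under shRNA RUS (0.73, limma adjusted p = 9.71e-07). On day 5 its levels were 398 ± 2.87 and 406 ± 38.7 (0.02, SE 0.0697, not called). Mfsd2b, the S1P exporter of red cells and platelets, had 0.85 on day 7 (limma adjusted p = 0.000269), and Abcc1, an ABC transporter, -0.49 (limma adjusted p = 5.33e-05).

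Of 11 kinase partners and receptor G proteins, 6 were higher and 1 lower on day 7, around a median of 0.35 on the log2 scale. The day 5 counts were equal, but the genes were not all the same ones, since Cib1 was the lower gene of day 7 and Gnai1 that of day 5, and Gna13 was called higher on day 7 alone and Traf2 on day 5 alone. Gna12, a G protein alpha subunit that S1P receptors couple to, went from 56.9 ± 2.43 to 104.8 ± 6.19 scaled TPM (0.88, limma adjusted p = 9.95e-07). Gnaq, which links them to phospholipase C, had 0.65 (limma adjusted p = 2.26e-06), and Rtn4, the source of Nogo-A, a protein ligand of S1pr2, 0.63 (limma adjusted p = 3.11e-07). With TPM as deposited, the day 5 counts of this list were 2 higher and 2 lower.

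The receptors of the related lipid lysophosphatidic acid, with the enzyme that makes it, gave 1 higher and 5 lower of 7 on day 7 and a median of -0.66. Lpar1 went from 25.9 ± 1.37 to 13.4 ± 0.668 scaled TPM (-0.95, limma adjusted p = 1.16e-06), Lpar2 had -0.98 (limma adjusted p = 0.000134) and Lpar6 0.85 (limma adjusted p = 7.41e-05). All 3 were called in the same direction on day 5.

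**Figure D5:**
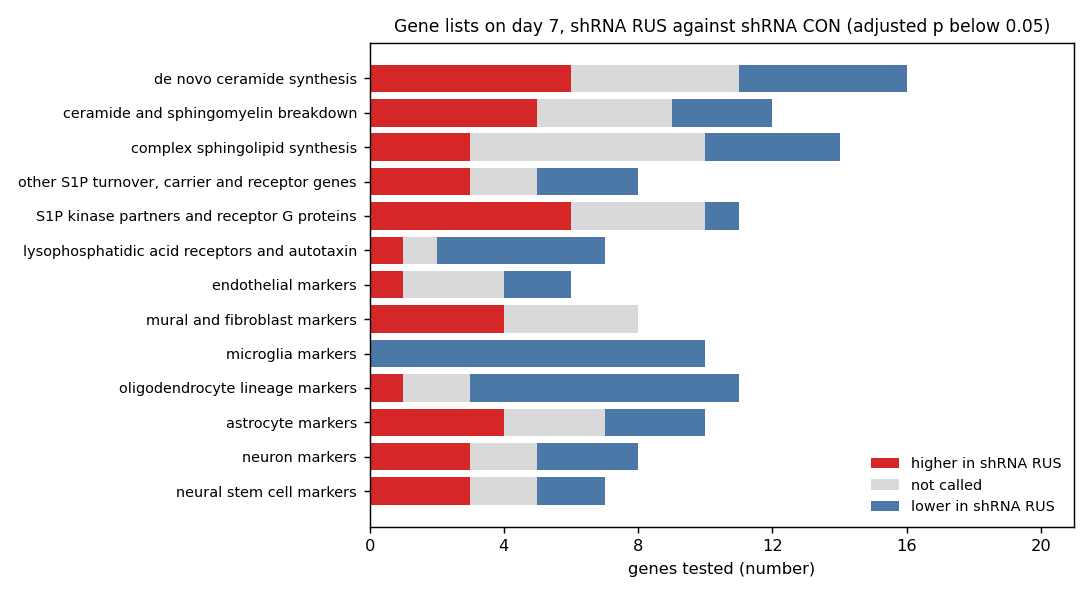
Number of tested genes (horizontal axis) in each pathway and cell type marker list that were called higher (red), not called (grey) or called lower (blue) under shRNA RUS against shRNA CON on day 7, at a limma adjusted p below 0.05. The kinase partners and G proteins have 6 higher of 11, the lysophosphatidic acid list 5 lower of 7 and the microglia list 10 lower of 10.

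Markers of the cells that such cultures could hold moved too, and their part in the S1P results was not tested. In bulk RNA, fewer cells of a type and less RNA per cell cannot be told apart. The summed level of the 10 endothelial markers, cells in which S1pr1 and Spns2 are known to act, was 11.3 to 12.4 scaled TPM under shRNA CON and 5.51 to 6.70 under shRNA RUS on day 7. On day 5 the sums were 10.3 to 12.3 and 6.96 to 8.62. On day 7, 6 of the 10 reached 0.1 TPM on average, Cldn5 was listed at 0 in all shRNA CON libraries and Cdh5 in all shRNA RUS libraries, and Kdr (-1.30) and Egfl7 (-1.25) were called lower and Esam (0.85) higher, around a median of 0.16 over the 6. Kdr (6.30) and Egfl7 (4.87 scaled TPM) made up most of the sum under shRNA CON.

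The 10 astrocyte markers, which all reached 0.1 TPM on average, summed to 5571 to 5817 scaled TPM under shRNA CON and 7133 to 7317 under shRNA RUS on day 5, and to 3460 to 3601 and 4030 to 4218 on day 7. The factors behind the marker sums were set over all 16 libraries. The levels of single markers given beside them were scaled within each day. Aldoc (0.61) and Gfap (0.35) were called higher on day 7 and Fgfr3 (-0.75) lower, with 4 of the 10 markers higher and 3 lower around a median of 0.04, and on day 5 there were 3 higher and 2 lower around 0.02. The 7 neural stem cell markers summed to 11640 to 13810 and 16920 to 20460 on day 5 and to 6098 to 6427 and 6536 to 7125 on day 7. Vim (8447) and Fabp7 (3328 scaled TPM under shRNA CON on day 5) made up most of these sums. On day 5, 4 of the 7 were called higher, and Nes (-0.87) and Hes5 (-0.67) lower. On day 7, 3 were called higher and 2 lower. Vim was higher (0.17), Fabp7 not called (-0.03), and Nes (-1.19) and Hes5 (-0.83) were lower.

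The 11 mural and fibroblast markers summed to 348 to 382 under shRNA CON and 284 to 329.8 under shRNA RUS on day 5, and to 203 to 228 and 234 to 304 on day 7. Acta2 made up most of these sums, with a mean of 301 under shRNA CON on day 5, and was called lower on day 5 (-0.28) and higher on day 7 (0.25). Pdgfrb was called higher on both days (0.32 and 1.32), and 4 of the 8 tested markers were higher and 0 lower on day 7. The 10 microglia markers summed to 303 to 329.5 and 141 to 174 on day 7, all 10 were called lower, and C1qa (-1.04) and C1qb (-0.88) led them by level, while on day 5 the sums overlapped. The 11 oligodendrocyte lineage markers summed to 489 to 531 and 420.3 to 452 on day 7, with 8 called lower, among them Olig1 (-0.50), and Cnp called higher (0.76). On day 5 their sums were 378 to 467 and 433 to 580.3, with Cnp (1.20) called higher and 4 markers lower. The 8 neuron markers summed to 485 to 554.5 and 498 to 560.9 on day 5 and to 709 to 789 and 659.7 to 784.5 on day 7, with 3 called higher and 3 lower on day 7. Map2 was lower (-0.23), Tubb3 not called (0.02), and Rbfox3 (0.53), Syt1 (0.57) and Snap25 (0.61) were higher.

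The genes whose levels followed Sphk1 most closely over the 16 libraries, among 15898 genes that reached 1 TPM on average, were Lhfp (Pearson r = 0.992), Herpud2 (0.991), Arl4c (0.991), Flot2 (0.988) and Ube2h (0.988) in log2(scaled TPM + 0.1). The 16 libraries fall into the 4 groups and share their day and shRNA, so these values describe the order of the groups. Each of the 5 had its highest group mean under shRNA RUS on day 5 and its lowest under shRNA CON on day 7, as Sphk1 had. Flot2, a membrane raft protein, had 77.3 ± 2.92, 128 ± 11.0, 49.1 ± 1.96 and 103 ± 6.36 scaled TPM in the order shRNA CON then shRNA RUS, day 5 before day 7. Its spread between groups was much narrower than that of Sphk1 in fold terms, and Lhfp ran only from 73.7 ± 2.47 to 143 ± 1.49.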

How the data were processed

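RNA-seq of 16 NSC cultures was analysed. From polyA RNA, the authors made Illumina libraries, aligned reads with STAR and quantified genes with RSEM (mm10/GRCm38, versions not given in the sources used here), and deposited TPM per library and gene symbol. Library depth is unknown. The tables also hold the authors' DESeq2 columns (base mean, log2 fold change, its error, statistic, p and adjusted p), which were not used.

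TPM were divided by the median ratio to the geometric mean of genes with at least 1 TPM in all libraries of the fit. A gene was tested when its mean reached 0.1 TPM, on log2(scaled TPM + 0.1) with limma 3.58.1 (R 4.3.3, lmFit, eBayes with trend, two-sided, Benjamini-Hochberg), within each day, and over 16 libraries between days, for lines with equal symbols in both tables (106 were not). On day 5, 3 lines that name no gene (at most 0.386% of TPM) were left out. The test was checked on simulated data. Groups follow the labels. The members and lists were chosen with earlier results of these data known. Named were the members, up to 3 genes per pathway list with the largest called change on day 7 at a mean of at least 1 TPM, the 2 highest markers per cell type and the 5 genes nearest to Sphk1, and other genes were named after their values were seen. Replicate numbers were not used to pair libraries. No 2 libraries were identical. Alternatives were other pseudocounts, filters, scalings, no trend, a replicate block and leaving out each library. Figures used matplotlib 3.10.9.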

Additional observations from a re-analysis of the deposited data

Results flagged for a closer look

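One library stood far from the rest of its group among the 36 groups of 4 libraries examined for the 9 genes: Spns2 in replicate 4 of shRNA CON on day 5, with 6.19 scaled TPM, where the next library had 5.81. The gap is 0.9 of the range of that group. Chance alone sets such a library apart in about 1 of 20 groups. Without it, the day 5 log2 fold change of Spns2 was -0.30 in place of -0.33, and 1 member in place of 2 passed the threshold downward on day 5.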

How the results depend on the processing

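On day 7, the calls of Sphk1, Sphk2, S1pr1, S1pr3 and Sgpp1 held in all 18 alternatives, with log2 fold changes of 1.70 to 3.36, 0.68 to 0.78, 0.58 to 0.66, 0.54 to 0.62 and -0.57 to -0.48. Members called lower on day 7 were 2 in place of 1 with quantile normalization and with scaling to the 75th percentile. On day 5, 2 members passed the threshold downward, 1 with quantile normalization, 0 with the replicate block and 0 to 2 when a library was left out. Members called higher with time in shRNA CON were 2 in place of 1 with a pseudocount of 1, a filter at 1 TPM, TPM as deposited or the 75th percentile, 0 with quantile normalization and 0 to 2 without 1 library. In shRNA RUS, TPM as deposited gave 2 higher and 2 lower in place of 1 and 5. For the difference between days, 1 member in place of 0 was more positive with a filter at 1 TPM, TPM as deposited, quantile normalization or the 75th percentile and 1 more negative with quantile normalization, and both counts were 0 to 1 without 1 library. Values that turned their direction and were called before or after were, with time in shRNA RUS, Sgpl1 at 0.10 (TPM as deposited) and 0.0104 (quantile), Sgpp1 at 0.26 (TPM as deposited), and between days S1pr3 at 0.25 (quantile); the cause was not tested. Values called neither before nor after also turned, among them S1pr2 with time in shRNA RUS (0.15 with TPM as deposited), Spns2 on day 7 (to -0.03), the difference between days for Sphk2, S1pr1 and Sgpl1 (to 0.12, 0.10 and 0.13), and, untested, Sgpl1 on day 5 without replicate 3 of shRNA RUS (0.0094).

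The replicate block gave a day 7 log2 fold change of 0.41 for S1pr2 (limma adjusted p = 0.0226) and ended the day 5 lower calls. Deviations of same-numbered libraries correlated at -0.252 to 0.101, and not every library correlated best with its own number, so the numbers were not taken to pair the libraries. It changed no other call of a member. TPM without counts give no interval for counting error. At the levels of S1pr5, Gm20754 and Sphk1 in shRNA CON, the size of a log2 fold change depends on the added 0.1.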
